A study of Mus musculus with 6 samples.

Results

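The genes described are 6 that encode proteins stored in the granules of eosinophils (Prg2, Prg3, Epx, Ear1, Ear2 and Ear6) and 4 that encode C/EBP transcription factors (Cebpa, Cebpb, Cebpd and Cebpe). These 10 of the 47643 genes in the deposited count table were found by matching gene identifiers to symbols. They were chosen because of how they compared between embryonic and adult mast cells, so their levels and fold changes are a description and carry no test. RNA was measured in 6 libraries of mast cells, the histamine-storing and protease-storing immune cells of tissues, sorted from mouse skin. The 3 embryonic libraries (PRIM) came from embryos at E16.5, a late stage of gestation, and were sorted as CD45+, F4/80-, CD64-, ckit+ and ST2+. The 3 adult libraries (DEF) came from adult skin and were sorted with Fcer1+ in place of ST2+, the other gates being shared. Both groups carried Cdh5CreERT2, an inducible Cre driven by an endothelial promoter, and had received 4-hydroxytamoxifen (4OHT) at E7.5. Use of the lineage label in the sort is not stated. Nor is it stated that libraries of a group came from separate animals, and p-values therefore measure only a spread between libraries that could be technical. Age, sort marker and a Dispase step that took the epidermis off adult skin differed together, and their effects cannot be told apart.

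Eosinophils and mast cells are both granulocytic cells of myeloid origin, and eosinophil granules are packed with cationic toxic proteins: major basic proteins, eosinophil peroxidase and a family of ribonucleases. C/EBP factors are leucine zipper proteins that pair with each other and with related factors and switch on granulocyte and macrophage genes. Among them, C/EBP alpha and C/EBP epsilon are known for granulocyte formation and maturation, and C/EBP beta and C/EBP delta for inflammatory and stress responses.

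The libraries held 34122162 to 49813523 counts in genes, so 3 counts, taken as the detection floor, stood at 0.0602 to 0.0879 CPM, the unit in which counts are scaled to a common library size. All 13 mast cell markers passed the filter on low counts (6 called higher in embryonic and 4 in adult libraries), and their summed level was 124415 to 135726 CPM in the embryonic group and 62836 to 65670 CPM in the adult group. Among them, Kit, Il1rl1 (encoding ST2) and Fcer1a belong to the sort markers, so nothing is read from their presence. Il1rl1 was 1.72-fold higher in embryonic and Fcer1a 130-fold higher in adult libraries, each in the group sorted on it. The 15111 genes that passed the filter were tested with edgeR's quasi-likelihood test and Benjamini-Hochberg adjustment (threshold 0.05): 9519 (63.0%) were called, 4722 (31.2%) higher in embryonic and 4797 (31.7%) higher in adult libraries. Of the 10 genes, 4 passed the filter and 2 of those 4, Prg3 and Cebpd, fell among the calls, a count from which nothing is read because the genes were chosen on this contrast. Libraries of the groups did not overlap for 3 of the 10 (Prg3, Cebpd and Ear2), but Ear2 did not pass the filter. Among the 4 that passed, they did not overlap for 2. Of all genes tested, 70.0% did not overlap (34.5% higher in embryonic and 35.5% higher in adult libraries). From these counts, too, nothing is read. Bulk libraries cannot separate fewer cells that make an RNA from less of it per cell.

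**Figure D1:**
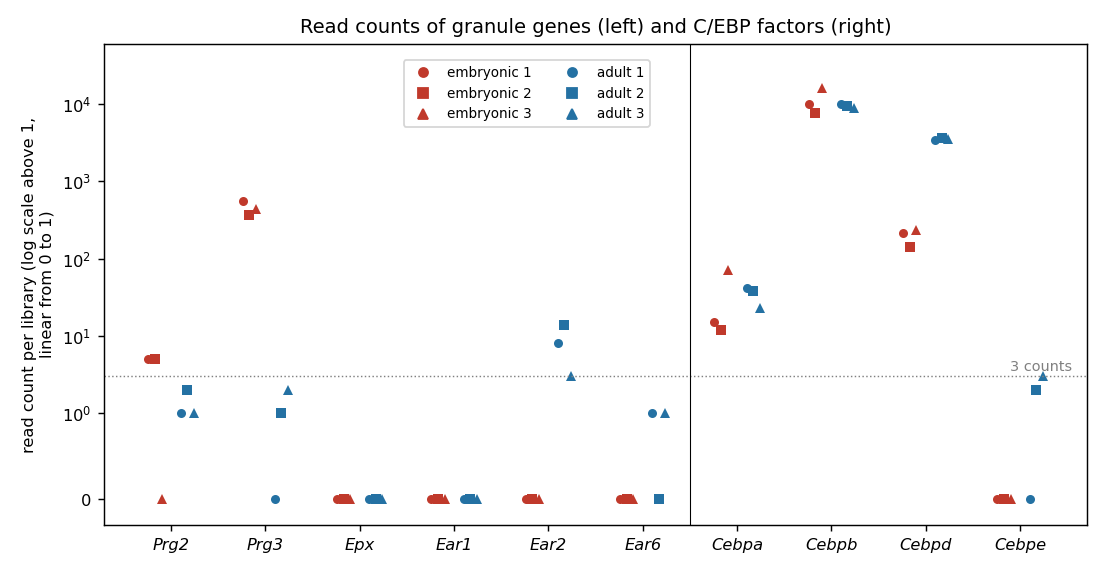
Read counts of the 10 genes in each library, on an axis that is linear from 0 to 1 and logarithmic above. Red marks are the 3 embryonic and blue marks the 3 adult libraries, the shape gives the replicate, and the dotted line is the floor of 3 counts. Prg3 held 364 to 552 counts in embryonic and 0 to 2 in adult libraries, Cebpd 143 to 232 and 3468 to 3597, and Cebpb at least 7608 counts in every library.

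The plot of counts for the 10 genes shows 3 levels of detection. Cebpb, Cebpd, Cebpa and, in embryonic libraries, Prg3 were measured with 10 or more counts per library. Prg2, Ear2, Ear6 and Cebpe had between 2 and 25 counts summed over all 6 libraries. Epx and Ear1 had 0 counts throughout.

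Prg3 and Prg2 encode the major basic proteins, which form the crystalline core of the eosinophil granule. They lie beside each other on chromosome 2 (GRCm38), Prg2 at 84980461 to 84983632 and Prg3 at 84988215 to 84993886, both on the plus strand and 4.58 kb apart. Their coding sequences were 67.6% identical (440 of 651 aligned bases). Compared in the direction of transcription, none of the 50-base words of either transcript occurred in transcripts of another gene. Reads of the pair could therefore be told apart. The same 90 coding bases of both (bases 370 to 459 of the coding sequence, GENCODE M21, GRCm38) show how far the pair has diverged, with the 28 bases that differ in capitals. The Prg2 stretch lies at chr2:84982589-84982678 and the Prg3 stretch at chr2:84991402-84991491, both on the plus strand.
Prg2: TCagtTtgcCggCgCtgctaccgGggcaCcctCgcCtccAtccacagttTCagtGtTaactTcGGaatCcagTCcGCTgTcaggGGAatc
Prg3: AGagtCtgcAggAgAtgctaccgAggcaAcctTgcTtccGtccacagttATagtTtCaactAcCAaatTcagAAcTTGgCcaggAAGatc

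Prg3 was the granule gene with a clear signal. Its counts were 552, 364 and 442 in embryonic replicates 1, 2 and 3, and 0, 1 and 2 in the adult replicates. Scaled to library size, these were 11.9, 10.3 and 9.22 CPM in embryonic libraries and 0, 0.0231 and 0.0526 CPM in the adult group, all adult values lying under the 3-count floor. The groups were far apart, with means of 10.5 ± 1.32 CPM (SD, n = 3) and 0.0252 ± 0.0264 CPM (SD, n = 3). With 1358 counts against 3, the ratio of summed counts, each divided by its group's total, was 484, with an exact 95% interval of 165 to 2352 that covers counting error only. Divided by exon length, the embryonic level was 12.5, 10.9 and 9.72 CPM per kb. By mean CPM over all libraries, Prg3 ranked 9555 of 15111.

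Prg2, the neighbouring and in eosinophils the classical major basic protein gene, had 5, 5 and 0 counts in embryonic and 1, 2 and 1 in adult libraries. Its means were 0.0830 ± 0.0739 CPM and 0.0309 ± 0.0136 CPM (SD, n = 3 each), and the groups overlapped. The ratio of its summed counts, 10 against 4, was 2.68 with an exact 95% interval of 0.772 to 11.7, counting error only. Embryonic libraries thus held 1358 counts of Prg3 beside 10 of Prg2, from genes of similar exon length (949 and 838 bases).

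Of the 7 genes within 100 kb of Prg3, 3 passed the filter. These neighbours were looked up after the values of Prg3 were known. Slc43a3, encoding a solute carrier, was at 96.1 ± 3.15 CPM in the embryonic group and 29.2 ± 5.11 CPM in the adult group (SD, n = 3 each), 3.28-fold higher in embryonic cells (adjusted p = 2.8e-06). Ssrp1, a histone chaperone subunit, was 1.75-fold higher in embryonic cells (adjusted p = 0.0003), and Tnks1bp1 4.64-fold higher in adult cells (adjusted p = 5.4e-05). The 3 neighbours tested thus did not share 1 direction, and the gene next to Prg3 on the far side from Prg2, P2rx3, 4.70 kb away and encoding an ATP-gated channel, had 10 and 5 summed counts.

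RefSeq's promoter stretch of Prg3 is shown because this was the only granule gene with more than 25 counts. The 250 bases before its start (GRCm38.p6, chr2:84987965-84988214, plus strand) held neither of the motifs searched on both strands, which were TTGCNNAA, a core of C/EBP sites, and AGATAA, a motif bound by Gata1 and its relatives. Variants of these motifs were not searched. The stretch holds ttatca, which reads TGATAA on the other strand and differs from AGATAA in its first base.
Prg3: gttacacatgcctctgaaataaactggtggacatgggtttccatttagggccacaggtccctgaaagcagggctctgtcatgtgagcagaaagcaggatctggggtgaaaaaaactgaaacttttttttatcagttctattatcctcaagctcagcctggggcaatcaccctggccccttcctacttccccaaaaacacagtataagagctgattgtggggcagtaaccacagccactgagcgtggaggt

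AGATAA occurred in 11.2% and TTGCNNAA in 10.8% of all 32851 RefSeq promoter stretches of 300 bases (250 before and 50 after the start). Of the 10 genes, 7 had a promoter entry, namely Prg3, Epx, Ear1, Ear2, Ear6, Cebpa and Cebpb, and 0 of these 7 held AGATAA. A match or its absence describes only these letters in this window.

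Epx encodes eosinophil peroxidase, which turns hydrogen peroxide and halides into bactericidal hypohalous acids. It lies on the minus strand of chromosome 11 (87864000 to 87875536, 2737 exon bases). It had 0 counts in each of the 6 libraries, which allows a level of up to 0.0115 CPM over all libraries, against 10.5 CPM for Prg3 in embryonic cells. Embryonic libraries alone set the limit for that group at 0.0238 CPM.

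The Ear genes encode eosinophil-associated ribonucleases of the RNase A family. Ear1 (43818765 to 43875517, minus strand), Ear2 (44102654 to 44103534, plus strand) and Ear6 (51853699 to 51854643, plus strand) lie on chromosome 14. The family arose by gene duplication, and its copies limit counting. Coding sequences of Ear1 and Ear2 were 95.7% identical (445 of 465 aligned bases), those of Ear2 and Ear6 88.2%, and those of Ear1 and Ear6 87.3%. Of the 50-base words in the transcripts, 57.4% of those of Ear1, 41.5% of those of Ear2 and 0.954% of those of Ear6 also occurred in transcripts of other genes. Reads placed in several genes or at several sites were not counted by the authors, so counts of Ear1 and Ear2 are uncertain. The first 90 coding bases (GENCODE M21, GRCm38) are printed to show this, with bases that differ from Ear2 in capitals, 2 in Ear1 and 10 in Ear6. They lie at chr14:44102887-44102976 (plus strand), chr14:43819320-43819409 (minus strand) and chr14:51853998-51854087 (plus strand).
Ear2: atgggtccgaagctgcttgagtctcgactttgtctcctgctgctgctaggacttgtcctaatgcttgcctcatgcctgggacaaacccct
Ear1: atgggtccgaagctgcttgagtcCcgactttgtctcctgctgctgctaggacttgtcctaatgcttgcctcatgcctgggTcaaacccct
Ear6: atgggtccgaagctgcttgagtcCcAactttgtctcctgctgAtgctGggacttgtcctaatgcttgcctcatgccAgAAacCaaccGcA

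Ear2 had 0 counts in each embryonic library and 8, 14 and 3 counts in adult replicates 1, 2 and 3, or 0.161, 0.323 and 0.0789 CPM. The groups did not overlap, in the direction opposite to Prg3, with an adult mean of 0.188 ± 0.124 CPM (SD, n = 3). With 25 counts against 0, the exact 95% interval of the ratio of summed counts, adult over embryonic, began at 5.88, counting error only. Adult replicate 2 held 14 of the 25 counts, and without it the interval began at 3.50. It began at 3.70 to 4.29 when 1 embryonic library was left out. Ear6 had 0 counts in embryonic libraries and 1, 0 and 1 in adult libraries, under the floor in both groups. Ear1 had 0 counts in all 6 libraries.

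Ear1 and Ear2 resembled each other upstream as well, 294 of 297 aligned promoter bases being identical (99.0%). Both held TTGCNNAA, and the surrounding 80 bases, printed with the match in capitals, were the same letters in both. They lie at chr14:44102528-44102607 (plus strand) for Ear2 and chr14:43819688-43819767 (minus strand) for Ear1 (RefSeq, GRCm38.p6).
Ear2: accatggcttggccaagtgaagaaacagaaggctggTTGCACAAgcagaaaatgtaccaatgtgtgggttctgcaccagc
Ear1: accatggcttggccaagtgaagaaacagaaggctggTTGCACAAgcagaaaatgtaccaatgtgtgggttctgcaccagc

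A list of other RNase A family genes and their inhibitor Rnh1, itself not of that family, had 13 genes in the table. Of these, 6 had 0 counts (Ang2, Ang4, Ear10, Ear14, Rnase10 and Rnase2a) and 4 passed the filter. Rnh1 was the 1 called higher in embryonic libraries, Rnase4 the 1 higher in adult libraries, and 2 were not called. With Rnh1 included, the median log2 fold change, embryonic over adult, was -0.38, beside -0.02 for all genes tested. The ribonucleases tested were Rnase4 (-2.18), Ang (-0.76) and Rnase6 (0.0009). Rnh1, the cytosolic inhibitor of these ribonucleases, was at 466 ± 30.8 CPM in the embryonic group and 343 ± 50.8 CPM in the adult group (1.36-fold, adjusted p = 0.0097). Rnase4, a secreted ribonuclease that shares 32.6% of its exon bases with Ang, was 4.54-fold higher in adult cells (3.43 ± 0.873 and 15.6 ± 3.30 CPM, SD, n = 3 each, adjusted p = 2.6e-05). Rnase6, an antimicrobial ribonuclease of phagocytes, was at 2.27 ± 0.148 and 2.26 ± 1.12 CPM (adjusted p = 0.999).

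Markers of other cells were read beside these granule genes. Of 8 eosinophil markers that are not among the 10 genes, 6 passed the filter, 5 called higher in embryonic and 1 higher in adult libraries, with a median log2 fold change of 1.29 and summed levels of 537 to 614 and 294 to 302 CPM. Adora3, an adenosine receptor, was 1.73-fold higher (adjusted p = 8.5e-05; 20.9% of its exon bases are shared with Tmigd3), Gata1, a factor that mast cells also use, 2.20-fold higher (adjusted p = 2.0e-05) and Il5ra, the IL-5 receptor chain, 2.73-fold higher (adjusted p = 6.2e-05), each in embryonic libraries. Siglecf and Ccr3, surface molecules by which eosinophils are recognised, were looked at after their values were known. Siglecf was 4.02-fold higher in embryonic libraries (18.1 ± 0.687 and 4.52 ± 0.365 CPM, SD, n = 3 each, adjusted p = 2.3e-06). Ccr3 was at 0.0644, 0.0283 and 0 CPM in the embryonic group and 0.382, 0.392 and 0.263 CPM in the adult group, and the defining marker Epx was at 0.

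Basophil markers in the table numbered 7, all tested, 4 higher in embryonic, 1 higher in adult and 2 not called, with a median log2 fold change of 0.29 and sums of 1418 to 1539 and 1065 to 1140 CPM. Prss34, a tryptase-like protease of mast cells and basophils, was at 415, 344 and 276 CPM in the embryonic group and 1.15, 0.808 and 0.974 CPM in the adult group (351-fold, adjusted p = 6.6e-09). None of these basophil markers was at 0 in all libraries, and their part in the Prg3 level was not tested. Of 14 neutrophil and monocyte markers, 3 passed the filter, 1 higher in embryonic, 1 higher in adult and 1 not called, with sums of 0.988 to 1.52 and 1.61 to 4.41 CPM and Camp and Elane at 0.

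Macrophage and dendritic cell markers were mostly higher in adult libraries, the direction of Ear2. Of the 12 tested, 11 were higher in adult libraries and 0 in embryonic ones, with a median log2 fold change of -4.81. Their sums were 3.87, 4.14 and 9.31 CPM in the embryonic group and 238, 272 and 121 CPM in adult replicates 1, 2 and 3, and no marker of this list was at 0 throughout. The adult library with the most Ear2 also had the highest of these sums and the one with the least had the lowest. Members of the list differed in this order. Lyz2 followed it, at 142, 168 and 62.6 CPM in adult replicates 1, 2 and 3, as did Cd207, Flt3, Mrc1 and Mertk. Cd163 did not, at 12.6, 16.1 and 18.1 CPM, nor did Adgre1, Itgax, C1qa, C1qb, C1qc, Csf1r and Fcgr1. The order was not particular to this list. Among fibroblast markers, Col3a1 (125, 137 and 25.2 CPM) and Lum (11.9, 13.1 and 3.16 CPM) also had it, and the others did not. Csf1r was not called, at 3.77 ± 1.51 CPM in the embryonic and 3.97 ± 0.431 CPM in the adult group (SD, n = 3 each). The most abundant, Lyz2, encoding lysozyme, was at 0.473 ± 0.336 and 124 ± 54.9 CPM (247-fold higher in adult, adjusted p = 0.00014). Their part in the Ear2 counts was not tested.

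Among the C/EBP genes, the adult cells differed from the embryonic ones mainly by Cebpd. Cebpb lies on chromosome 2 (167688915 to 167690418, plus strand, 1504 exon bases), Cebpd on chromosome 16 (15887286 to 15888466, plus strand, 1180 bases), Cebpa on chromosome 7 (35119293 to 35121928, plus strand, 2636 bases) and Cebpe on chromosome 14 (54710363 to 54712174, minus strand, 1238 bases). The coding sequences of Cebpa, Cebpb and Cebpd were rich in G and C (71.9%, 73.4% and 70.4%), against 51.8% for Prg3 and 44.2% for Ear2. Compared in the direction of transcription, no 50-base word of these 4 transcripts occurred in transcripts of another gene. On the opposite strand, 51 exon bases of Cebpa overlap Gm45091, and overlaps of Cebpb and Cebpd are given below.

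Cebpd had 212, 143 and 232 counts in embryonic and 3468, 3597 and 3521 counts in adult libraries. These were 4.55, 4.05 and 4.84 CPM in the embryonic group and 69.8, 83.0 and 92.7 CPM in adult replicates 1, 2 and 3. Every adult library exceeded every embryonic one by a wide margin. The means were 4.48 ± 0.400 and 81.8 ± 11.5 CPM (SD, n = 3 each), and the fitted log2 fold change, embryonic over adult, was -4.19 ± 0.15 (SE), or 18.2-fold higher in adult cells. In the later GENCODE M21 annotation the gene model extends downstream to 15891031 and spans 3746 bases. Of the 2566 bases added, 559 lie in exons that the count table gives to Spidr, on the opposite strand. Spidr, looked up after the values of Cebpd were known, was 2.35-fold higher in embryonic cells (44.9 ± 3.12 and 19.1 ± 1.84 CPM, SD, n = 3 each, adjusted p = 1.2e-05).

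Cebpb was the most abundant of the 10 genes, ranking 717 of 15111 by mean CPM. It held 10116, 7608 and 16230 counts in embryonic and 9949, 9536 and 9033 in adult libraries, or 217, 216 and 339 against 200, 220 and 238 CPM. Embryonic replicates 1 and 2 lay within the adult range and replicate 3 above it, so the groups overlapped. The means of 257 ± 70.6 and 219 ± 18.8 CPM (SD, n = 3 each) gave a log2 fold change of 0.23 ± 0.18 (SE), and 0.03 without embryonic replicate 3. Of its exon bases, 312 (20.7%) overlap exons of Tmem189 on the other strand, where reads were not assigned to either gene. Tmem189 itself was 1.96-fold higher in adult cells (adjusted p = 2.8e-05).

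Cebpa was near the limit of the filter, with 15, 12 and 71 counts in embryonic and 42, 38 and 23 in adult libraries. Its levels were 0.322, 0.340 and 1.48 CPM in the embryonic group and 0.845, 0.877 and 0.605 CPM in the adult group, so that the adult values fell between embryonic replicates 1 and 2 on one side and replicate 3 on the other. The log2 fold change was -0.11 ± 0.64 (SE), and without embryonic replicate 3 it was -1.18, or 2.27-fold higher in adult cells. Cebpe had 0 counts in embryonic and 0, 2 and 3 counts in adult libraries, a mean of 0.0417 ± 0.0397 CPM (SD, n = 3). The groups overlapped. The exact 95% interval of the ratio of its summed counts, adult over embryonic, began at 0.856, counting error only. With 1 library left out it began at 0.251 (without adult replicate 3) to 1.36 (without adult replicate 1, the library at 0).

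**Figure D2:**
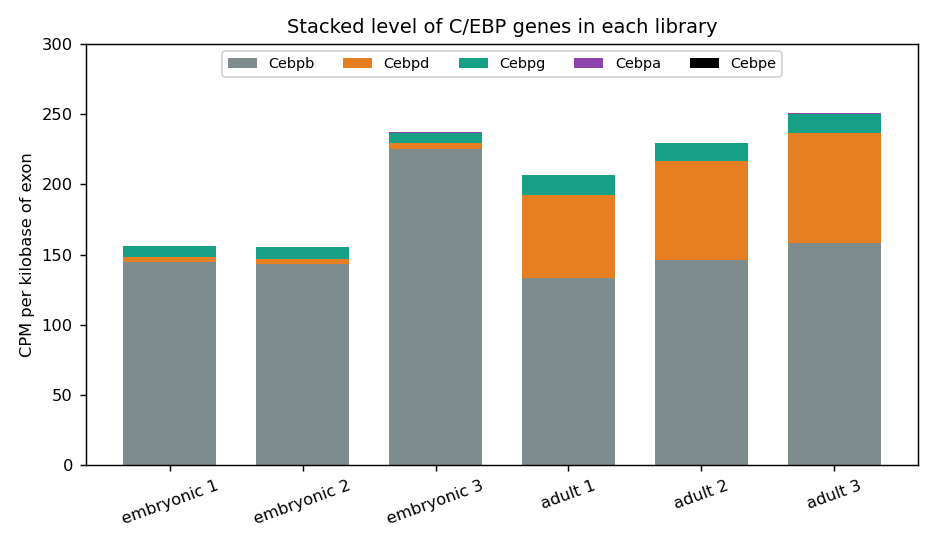
Level per exon length (CPM per kb) of Cebpa, Cebpb, Cebpd, Cebpe and Cebpg, stacked for each library, with bars starting at 0. Cebpb made up 92.2% to 94.9% of the sum in embryonic and 63.1% to 64.3% in adult libraries, where Cebpd added 28.6% to 31.3%. Full exon lengths were used, so Cebpb, which lost reads where it overlaps Tmem189, is set too low.

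Levels of different genes were compared per exon length, with Cebpg, a widely expressed family member lacking a classical activation domain, added. Cebpb was at 144, 143 and 225 CPM per kb in embryonic and 133, 146 and 158 CPM per kb in adult libraries. Cebpd was at 3.86, 3.43 and 4.10 CPM per kb in embryonic and 59.1, 70.4 and 78.5 CPM per kb in adult libraries. The ratio of Cebpb to Cebpd was therefore 37.4, 41.7 and 54.9 in embryonic and 2.25, 2.08 and 2.01 in adult libraries. Full exon lengths were used, although reads in the 20.7% of Cebpb exon bases that overlap Tmem189 were not assigned. Taken alone, this sets its level, share and ratio too low. Cebpd was counted on 1180 of the 3746 bases of its later model. What that does to its level, to the shares and to the ratio was not measured. The stacked plot shows the same as shares of the 5 genes: the mean share of Cebpb was 93.4% and 63.7%, that of Cebpd 2.08% and 30.3%, and that of Cebpg 4.33% and 5.92%, in embryonic and adult libraries. Cebpa took 0.237% of the sum at most, in embryonic replicate 3.

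Cebpd is induced within hours by cytokines and stress, and immediate early genes, which cells switch on quickly after stimulation or handling, were therefore read beside it. Of 22 immediate early and stress genes tested, 15 were higher in adult libraries, 0 in embryonic ones and 7 were not called, with a median log2 fold change of -1.78. Their summed levels were 16266, 19367 and 32412 CPM in the embryonic group and 43202, 52204 and 57148 CPM in adult replicates 1, 2 and 3. Atf3, a stress-induced repressor, was 104-fold higher in adult cells (10.9 ± 4.37 and 1135 ± 348 CPM, SD, n = 3 each, adjusted p = 1.1e-05), and Junb 1.77-fold higher (adjusted p = 0.00088). Jun, an AP-1 subunit, was at 1548, 2463 and 4999 CPM in the embryonic group and 5063, 6569 and 6754 CPM in the adult group (adjusted p = 0.082), and it was called in 4 of 14 alternatives, among them without embryonic replicate 3. The part of this list in the Cebpd level was not tested.

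Embryonic replicate 3, which had the highest Cebpa and Cebpb levels, also stood apart in other lists. Its immediate early sum, 32412 CPM, was the highest of its group. Keratinocyte markers summed to 58.0, 114 and 529 CPM in the embryonic group and 59.3, 58.7 and 33.6 CPM in the adult group. Krt1 (243 CPM) and Krt10 (218 CPM) made up most of the sum in embryonic replicate 3. Of these 8 markers, all tested and none at 0 throughout, 2 were higher in embryonic libraries, 2 in adult ones and 4 were not called. Markers of adipocytes, cells in which Cebpa is high, summed to 1.55, 1.64 and 5.36 CPM in the embryonic group and 3.08, 3.25 and 1.08 CPM in the adult group, with 3 of 9 tested and 0 called. Fibroblast markers summed to 834 to 958 and 625 to 949 CPM, with 1 of 8 higher in embryonic and 2 higher in adult libraries. These sums hide a difference within the adult group. Pdgfrb was at 442, 475 and 533 CPM in adult replicates 1, 2 and 3. All other markers of the list were lowest of that group in replicate 3, such as Col1a2 (127, 107 and 16.4 CPM) and Dcn (148, 128 and 30.2 CPM). Cebpa was highest in the library with the highest adipocyte sum, embryonic replicate 3. Members of the adipocyte list differed in this. Within the embryonic group, Fabp4, Lpl and Pparg were highest in replicate 3, with 142, 72 and 38 counts there. Adipoq had 1, 7 and 3 counts in embryonic replicates 1, 2 and 3, and Plin1 had 2, 2 and 2. Cidec had 0, 4 and 0 counts, Retn 0, 2 and 0, and Lep and Cfd 0 in each embryonic library. The parts of adipocytes and keratinocytes in the Cebpa and Cebpb levels were not tested.

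**Figure D3:**
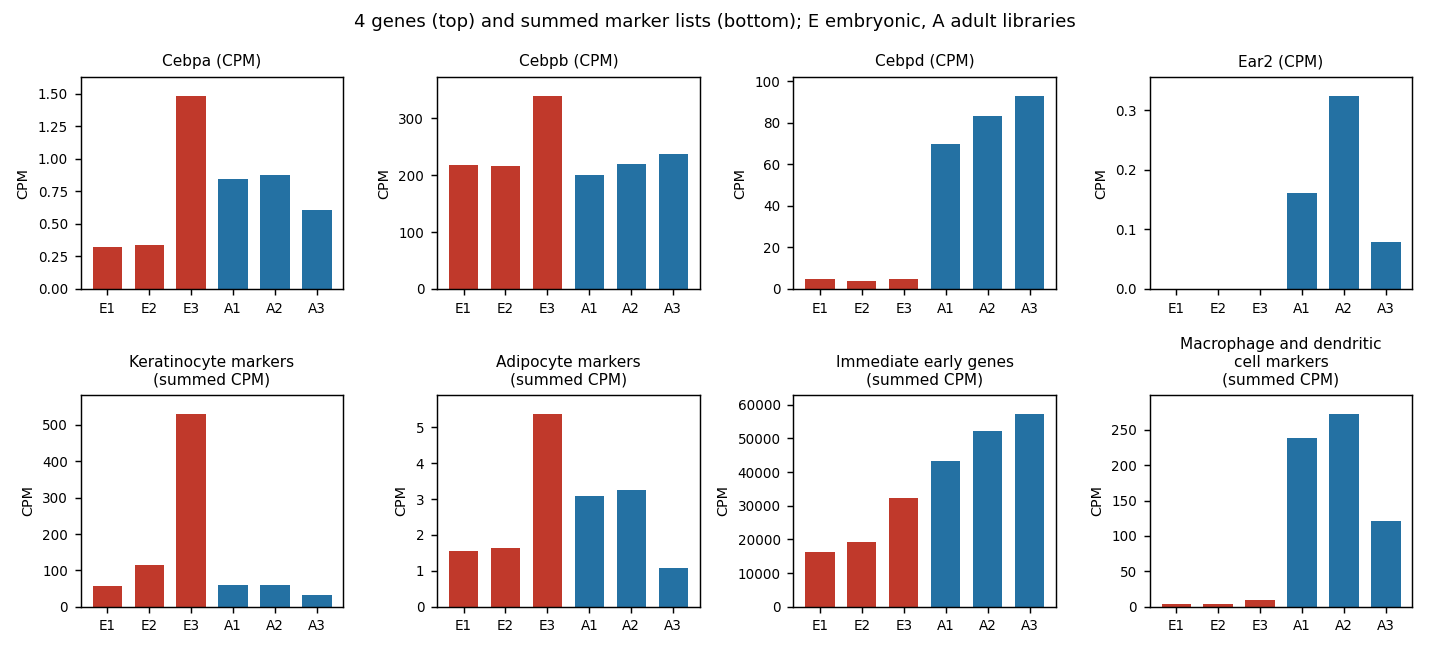
CPM of Cebpa, Cebpb, Cebpd and Ear2 (top) and summed CPM of 4 gene lists (bottom) in each library, with bars starting at 0, red for embryonic replicates E1 to E3 and blue for adult replicates A1 to A3. Embryonic replicate 3 was the highest of its group for Cebpa, Cebpb and for the keratinocyte, adipocyte and immediate early sums, and Ear2 was present where the macrophage and dendritic cell sum was 121 to 272 CPM.

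The bars of these 4 genes and 4 lists set the scales side by side: Ear2, at 0.0789 to 0.323 CPM in the adult group, stood against macrophage and dendritic cell sums of 121 to 272 CPM. Cebpd in all adult libraries exceeded 4.84 CPM, its highest embryonic level, whereas for Cebpa and Cebpb the highest bar was that of embryonic replicate 3.

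Other C/EBP family members and partners changed in both directions. All 13 passed the filter, with 3 higher in embryonic, 7 higher in adult and 3 not called, and a median log2 fold change of -0.47. Cebpg was at 42.6, 48.5 and 42.5 CPM in the embryonic group and 81.1, 70.2 and 77.4 CPM in the adult group (1.71-fold, adjusted p = 0.00013). Atf4, a stress factor that can pair with C/EBP proteins, was 2.60-fold higher in adult cells (465 ± 62.3 and 1210 ± 155 CPM, SD, n = 3 each, adjusted p = 1.4e-05). Ddit3, a C/EBP relative that blocks DNA binding by its partners, was 2.02-fold higher in adult cells (adjusted p = 5.6e-05). All 3 were higher in the adult group, the direction of Cebpd. Trib1 and Trib2 encode adaptors that send C/EBP alpha to degradation. Trib1 was at 2.19, 3.88 and 3.73 CPM in the embryonic group and 82.7, 61.2 and 121 CPM in the adult group (27.1-fold, adjusted p = 1.3e-05), and Trib2 was 2.76-fold higher in adult cells (adjusted p = 4.5e-06). Calr, encoding the chaperone calreticulin, was 3.04-fold higher in embryonic cells (985 ± 112 and 324 ± 24.7 CPM, SD, n = 3 each, adjusted p = 1.8e-06), as was Nfil3, a leucine zipper repressor, by 2.42-fold (adjusted p = 0.00074). Cebpg, Ddit3 and Nfil3 were picked after their values were known.

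**Figure D4:**
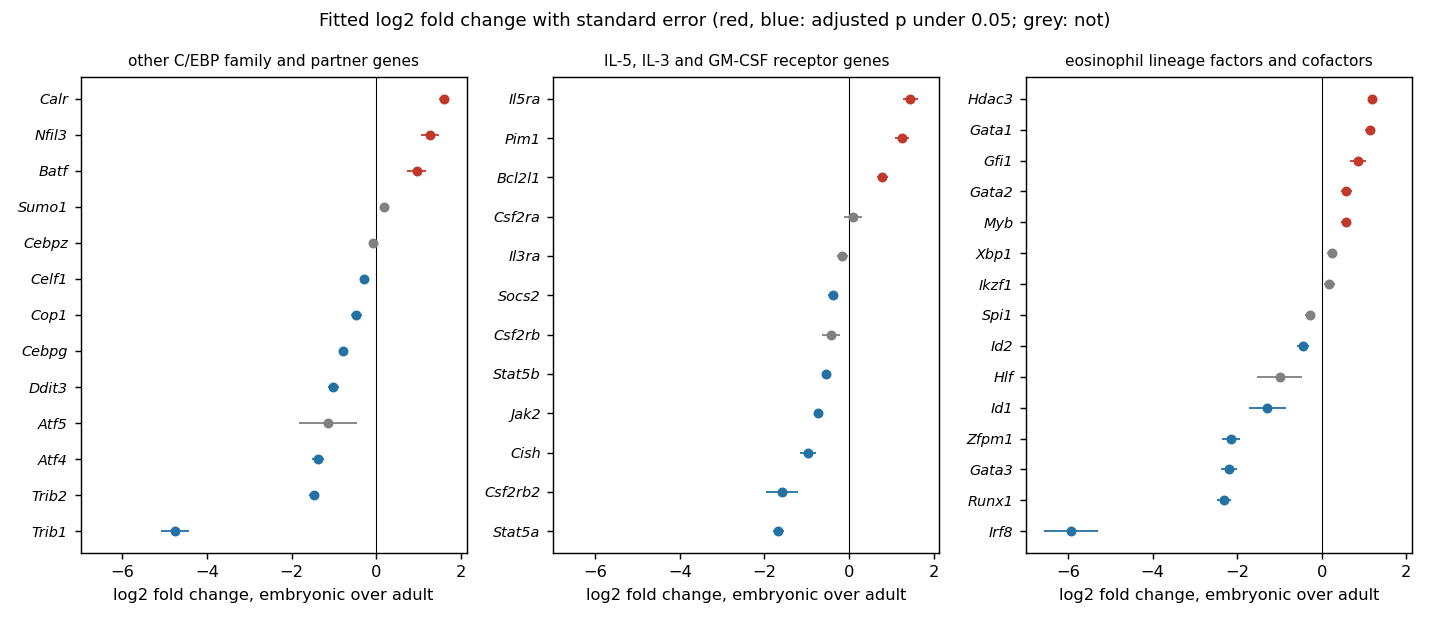
Fitted log2 fold change, embryonic over adult, with its standard error for each tested gene of 3 lists: other C/EBP family and partner genes, IL-5, IL-3 and GM-CSF receptor genes, and eosinophil lineage factors. Red points are called higher in embryonic, blue points higher in adult and grey points were not called. Calls lay on both sides of 0 in each list, 3 and 7, 3 and 6, and 5 and 6, and the lowest values were those of Trib1 (-4.76), Stat5a (-1.67) and Irf8 (-5.93).

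Genes that C/EBP factors switch on in myeloid cells include granule proteins and receptors of neutrophils and macrophages. Of 20 such genes, 11 were too low to test and 9 passed the filter, with 2 higher in embryonic, 4 higher in adult and 3 not called, a median log2 fold change of -1.16, and Camp and Elane at 0. Cd14, the lipopolysaccharide co-receptor, was 51.2-fold higher in adult cells (0.954 ± 0.275 and 48.8 ± 2.25 CPM, SD, n = 3 each, adjusted p = 2.4e-08), and Il6ra, an IL-6 receptor chain, 4.00-fold higher (adjusted p = 2.3e-06). Fcgr3, a low-affinity IgG receptor, was 1.82-fold higher in embryonic cells (adjusted p = 0.00016). Lyz2 and Csf1r stand in this list and in the macrophage list. Mpo, the neutrophil peroxidase related to Epx, was at 0.160 ± 0.138 and 0.244 ± 0.152 CPM (SD, n = 3 each, adjusted p = 0.51).

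The plot of fold changes for 3 lists includes factors that direct eosinophil formation. Of 16, 15 passed the filter, 5 higher in embryonic, 6 higher in adult and 4 not called, with a median log2 fold change of -0.28. Gata1 was at 182, 145 and 145 CPM in the embryonic group and 76.7, 71.9 and 66.1 CPM in the adult group, the direction of Prg3. Irf8, a myeloid factor also high in dendritic cells, was at 0.554 ± 0.0626 and 33.9 ± 19.8 CPM (60.9-fold higher in adult, adjusted p = 0.00030), and Runx1 was 4.93-fold higher in adult cells (adjusted p = 2.4e-06). Spi1, encoding PU.1, was at 93.3 ± 3.36 and 113 ± 17.2 CPM (SD, n = 3 each, adjusted p = 0.065).

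IL-5, IL-3 and GM-CSF support eosinophils through a shared beta chain. Of 12 receptor and signalling genes, all tested, 3 were higher in embryonic, 6 higher in adult and 3 not called, with a median log2 fold change of -0.40. Il5ra was at 30.4, 27.5 and 36.0 CPM in the embryonic group and 13.1, 12.5 and 8.76 CPM in the adult group. Csf2rb, the shared chain, was at 1618 ± 370 and 2182 ± 489 CPM (SD, n = 3 each, adjusted p = 0.10, called in 3 of 14 alternatives). Its close paralog Csf2rb2 was 3.01-fold higher in adult cells (363 ± 121 and 1094 ± 433 CPM, SD, n = 3 each, adjusted p = 0.011), a call lost without embryonic replicate 3 and with genes of at least 1 count (adjusted p up to 0.064). Levels of both paralogs are uncertain, since reads placed at several sites were not counted, and how many they share was not measured. Stat5a, a transducer of these receptors, was 3.18-fold higher in adult cells (adjusted p = 2.2e-06), and its target Cish 1.95-fold higher (adjusted p = 0.0017).

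A list of companions of the eosinophil granule had calls in both directions. Of 12 in the table, 10 passed the filter, 4 higher in embryonic, 4 higher in adult and 2 not called, with a median log2 fold change of -0.28. One of those called higher in adult cells was Mbp, which in mouse encodes myelin basic protein and not a granule protein. Without it, an alternative added after the data were seen, 4 of 9 were called higher in the embryonic group, 3 in the adult group, and the median was 0.10. Galns, a lysosomal sulfatase, was 6.82-fold higher in embryonic cells (29.8 ± 1.31 and 4.36 ± 0.584 CPM, SD, n = 3 each, adjusted p = 2.7e-07), and Srgn, the proteoglycan core of granules, 2.08-fold higher (adjusted p = 2.8e-05). Ctsg, cathepsin G, was 6.69-fold higher in adult cells (adjusted p = 2.3e-06), and Serpinb1a, an inhibitor of granule proteases, 1.73-fold higher (adjusted p = 7.0e-05).

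Genes with the most similar profile over the 6 libraries were sought among 9380 genes by the root mean square difference of centred log2(CPM + 0.5). Nearest to Prg3 were Emilin1 (difference 0.14), Fbp1 (0.14), Camk2a (0.14) and Ankrd6 (0.17). Emilin1 is an extracellular matrix glycoprotein gene, Fbp1 a gluconeogenic enzyme gene and Camk2a a calcium-dependent kinase gene. The added 0.5 CPM shrinks the contrast of a gene near 0 in adult cells, so nearness here does not mean equal fold changes. Emilin1 was well above 0 in adult cells, unlike Prg3. Its adult mean was 11.3 ± 0.825 CPM and its embryonic mean 226 ± 20.7 CPM (SD, n = 3 each). Fbp1 was as close to Prg3 in level as in profile, at 12.1 ± 0.998 CPM in the embryonic group and 0.0231 ± 0.0400 CPM in the adult group (SD, n = 3 each). Nearest to Cebpb were Lysmd4 (0.07), Slirp (0.08), Lipe (0.08) and Fam114a1 (0.09). Lipe, a lipase gene, was at 11.8 ± 2.63 and 10.9 ± 0.443 CPM, with the wider spread in the embryonic group, as for Cebpb.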

How the data were processed

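RNA of sorted mouse skin mast cells was measured in 3 embryonic and 3 adult libraries, made from full-length cDNA with a SMART-Seq v4 kit and tagmentation, per the labels' protocols. The kit does not mark strand. Without molecular identifiers in the reads, intervals and floors cover counting error only. The authors deposited raw counts per gene. GENCODE M9 exons were counted by featureCounts 1.5.0-p1 without strand (setting 0), ignoring reads marked as duplicates and leaving out reads placed at several sites or in several genes, per the file headers. Whether duplicates had been marked is not given in the sources used here, and removing them would cap the most abundant genes. Reads were aligned with STAR to GRCm38, per the submitters' processing notes. Exon lengths and coordinates are those of the deposited table.

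Symbols came from GENCODE M21 by gene ID (47224 of 47643 matched, 419 did not). Of the deposited columns, 0 belonged to other samples. The test was edgeR's (version 4.0.16, R 4.3.3: TMM, filterByExpr at its default minimum of 10 counts, robust quasi-likelihood fit, Benjamini-Hochberg adjustment over 15111 genes, threshold 0.05), with group as the term. CPM used TMM-scaled library sizes. Replicates of a group differed by more than counting noise (chi-square per degree of freedom 37.8 to 99.2), so each counted as 1 library. A floor of 3 counts and exact binomial 95% intervals were used for low counts. Coding sequences and 50-base words were taken from GENCODE M21 transcripts, and promoters from RefSeq. Words were compared in the direction of transcription only, although the reads were counted without strand.

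The genes and lists were chosen with earlier results of these data known. The rule named, per pathway list, the 4 most abundant genes and the 2 largest called changes, per marker list the 3 most abundant genes, and for the most abundant granule and C/EBP gene the 4 most similar genes of at least 5 CPM. Some genes that it named are not reported. The fit was repeated with 2 other scalings (RLE, upper quartile), 2 other filters (1 count in total, or 1 CPM in 3 libraries), 2 other tools (limma-voom of limma 3.58.1, and DESeq2 1.42.0), without robust estimation, with a replicate block, and without each replicate.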

Additional observations from a re-analysis of the deposited data

How the results depend on the processing

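The number of genes called was 9519, and over the 14 alternatives it ranged from 8509 (at least 1 CPM in 3 libraries) to 10500 (at least 1 count), with 4258 to 5210 higher in embryonic and 4251 to 5290 higher in adult libraries. Leaving out each replicate gave 8796 to 9221. With the replicate number as a block, 8848 genes were called. Libraries with the same number deviated from their group means with correlations of -0.12, -0.08 and -0.13, and no library correlated best with the one of its own number. The labels give no shared litter, batch or day for a number, and these correlations are too few to decide it. Cebpd ranged from -4.29 to -4.07 (log2, embryonic over adult) and Cebpb from 0.03 to 0.39 over 14 alternatives, and Cebpa from -1.18 to 0.27 over 13, since it failed the filter of 1 CPM in 3 libraries. The fitted value for Prg3, which depends on the prior count, was 8.66, and 8.03 and 9.59 without adult replicates 1 and 3. Of 57 genes named by the rule, 46 kept their side of the threshold in all 14 alternatives, and none of the 57 reversed among its calls. Counts by list moved by over 1.5 times, or to or from 0, in these cases. Higher in adult libraries were 0 to 3 keratinocyte, 1 to 2 fibroblast, 0 to 2 neutrophil and monocyte, 0 to 2 adipocyte and 0 to 1 eosinophil markers, and 7 to 11 macrophage and dendritic cell markers, the lowest with at least 1 CPM in 3 libraries. Higher in embryonic libraries were 1 to 2 keratinocyte, 1 to 4 fibroblast and 0 to 1 neutrophil and monocyte markers. So were 1 to 2 genes of the RNase A list with Rnh1, 1 to 2 myeloid C/EBP targets and 0 to 1 immediate early genes. Depth limits Prg2, Ear2, Ear6 and Cebpe, with 2 to 25 counts over 6 libraries, and a level under 0.0115 CPM could not be seen for Epx. For Ear1 the limit can be higher by an amount not measured, since reads placed at several sites were not counted. Counts of Ear2 can be too low for the same reason.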
